A study of Homo sapiens with 9 samples.

Results

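MET, its ligand HGF and the genes that activate HGF, hold its activation in check or act directly below the receptor were examined in RNA of HCT116, an established line of human colorectal carcinoma cells. The set was chosen by gene name and held 10 genes, namely MET, MST1R, HGF, HGFAC, ST14, HPN, SPINT1, SPINT2, GAB1 and CBL. All 10 were found among the 33861 genes of the deposited table, and all 10 passed the filter on low counts that left 20988 genes for testing. The names were chosen from the known roles of the genes, with earlier results of these data known.

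HGF is secreted as an inactive single chain and binds MET, a receptor tyrosine kinase, in that form without switching it on. Serine proteases cut the chain into the active growth factor. The protease encoded by HGFAC circulates in plasma, whereas matriptase (ST14) and hepsin (HPN) sit in the membrane of epithelial cells, and the Kunitz-type inhibitors encoded by SPINT1 and SPINT2 block these proteases. MST1R, also called RON, is the closest relative of MET. GAB1 is the docking protein that carries the signal of activated MET into the cell, and CBL is the ubiquitin ligase that sends the receptor for degradation.

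The 9 libraries formed 3 groups with 3 libraries in each. In NC, the control, cells received neither factor, and how long they were cultured is not given in the sources used here. Activin cells received activin A at 100 ng/mL for 5 days. Activin+HGF cells received the same and after it HGF at 20 ng/mL for 5 days, so this group differed from Activin in days of culture as well as in HGF. The added HGF was protein and gives no RNA. All libraries came from 1 line, and nothing in the labels says that libraries of a group came from separate cultures, so that p-values measure the spread between these libraries, which may be technical.

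Depth was 57453977 to 77016167 counts per library. The TMM factors, which correct each library for its composition, were 1.03 to 1.07 in NC, 0.988 to 1.17 in Activin and 0.783 to 0.926 in Activin+HGF. Activin library 2 stood apart, since the genes of lowest GC content, in the first of 5 equal bins, read 0.63 lower on the log2 scale at the median than in the other Activin libraries, and those of highest GC content, in the last bin, 0.55 higher. The counts of Activin+HGF library 1 differed from the other libraries of its group with a chi-square per degree of freedom of 237 and 257, against 60.3 between those libraries. Summed over 9 colorectal epithelial markers, the level in CPM (counts scaled to a common library size) was 2715 to 2981 in NC, 2086 to 3450 in Activin and 3804 to 4291 in Activin+HGF, while CEACAM5 held 0 to 30 counts and VIL1 0 to 16. Endothelial markers summed to at most 2.85 CPM in any library and leukocyte markers to at most 25.4, with PTPRC at 0 to 11 counts and CD68, a lysosomal protein of macrophages and other cells, at 99 to 183 counts in NC and 653 to 1416 in the treated libraries.

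Start site sequences are given for both receptors and for SPINT1, the genes of the set that had an entry and an FPKM above 1. Each is the 250 bases before a start site in RefSeq GRCh38.p14, printed 5′ to 3′ on the strand of the gene, and 6 of the 10 genes had such an entry. SPINT1 had 2 entries, and the start site of the one shown lies 30 bases inside the gene as the deposited table gives it. Capitals mark the GC box, GGGCGG or its reverse complement.
MET (chr7:116671946-116672195, plus strand): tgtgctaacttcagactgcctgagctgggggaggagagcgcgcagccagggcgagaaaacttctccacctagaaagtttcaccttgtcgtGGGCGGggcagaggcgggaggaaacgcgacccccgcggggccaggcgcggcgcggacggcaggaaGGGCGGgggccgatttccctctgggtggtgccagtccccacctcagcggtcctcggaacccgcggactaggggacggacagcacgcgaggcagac
MST1R (chr3:49903874-49904123, minus strand): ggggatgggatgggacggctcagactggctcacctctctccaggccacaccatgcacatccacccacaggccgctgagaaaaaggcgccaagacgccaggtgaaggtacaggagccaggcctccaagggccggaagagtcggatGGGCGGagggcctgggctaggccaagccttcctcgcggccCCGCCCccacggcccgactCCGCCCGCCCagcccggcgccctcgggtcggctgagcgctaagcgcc
SPINT1 (chr15:40843798-40844047, plus strand): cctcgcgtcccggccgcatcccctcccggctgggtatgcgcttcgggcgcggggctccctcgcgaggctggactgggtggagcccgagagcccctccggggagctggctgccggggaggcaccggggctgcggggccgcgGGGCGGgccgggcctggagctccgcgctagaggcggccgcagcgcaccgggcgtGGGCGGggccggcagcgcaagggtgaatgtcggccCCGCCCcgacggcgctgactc

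The GC content of these windows was 68.4% for MET, 70.8% for MST1R and 80.4% for SPINT1, against a median of 58.0% over 35116 windows of the same length. MET held 2 GC boxes, MST1R 4 and SPINT1 3, and 42.6% of all windows held at least 1. None of the 3 windows shown held the letters GTCTAGAC (the SMAD palindrome, in 0.182% of all windows), CAGACA (a shorter SMAD motif, 13.6%), TGANTCA (AP-1, 6.57%) or TAAACA (forkhead, 10.99%) on either strand. The other SPINT1 entry, 250 bases at chr15:40844227-40844476, held 1 match to CAGACA and 0 GC boxes. A match or its absence describes these letters in this window and nothing more.

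The 10 genes differed widely in level. Levels between genes are compared as FPKM, the fragment counts that the authors scaled to gene length and library size. In NC, SPINT2 had the highest FPKM, 47.9 ± 0.809 (SD, n = 3), followed by MET at 40.8 ± 3.40 and ST14 at 39.7 ± 2.61, whose ranges overlapped, and SPINT1 at 25.7 ± 1.93. MST1R at 7.19 ± 0.312 and CBL at 6.97 ± 0.135 overlapped, and the remaining genes, GAB1, HGF, HGFAC and HPN, reached at most 0.55 in any NC library. SPINT2 stayed at the top of the order in both treated groups. MET held place 2 in NC and place 4 in Activin, where its range overlapped those of SPINT1, ST14 and MST1R, and place 4 in Activin+HGF, where its range met no other.

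**Figure D1:**
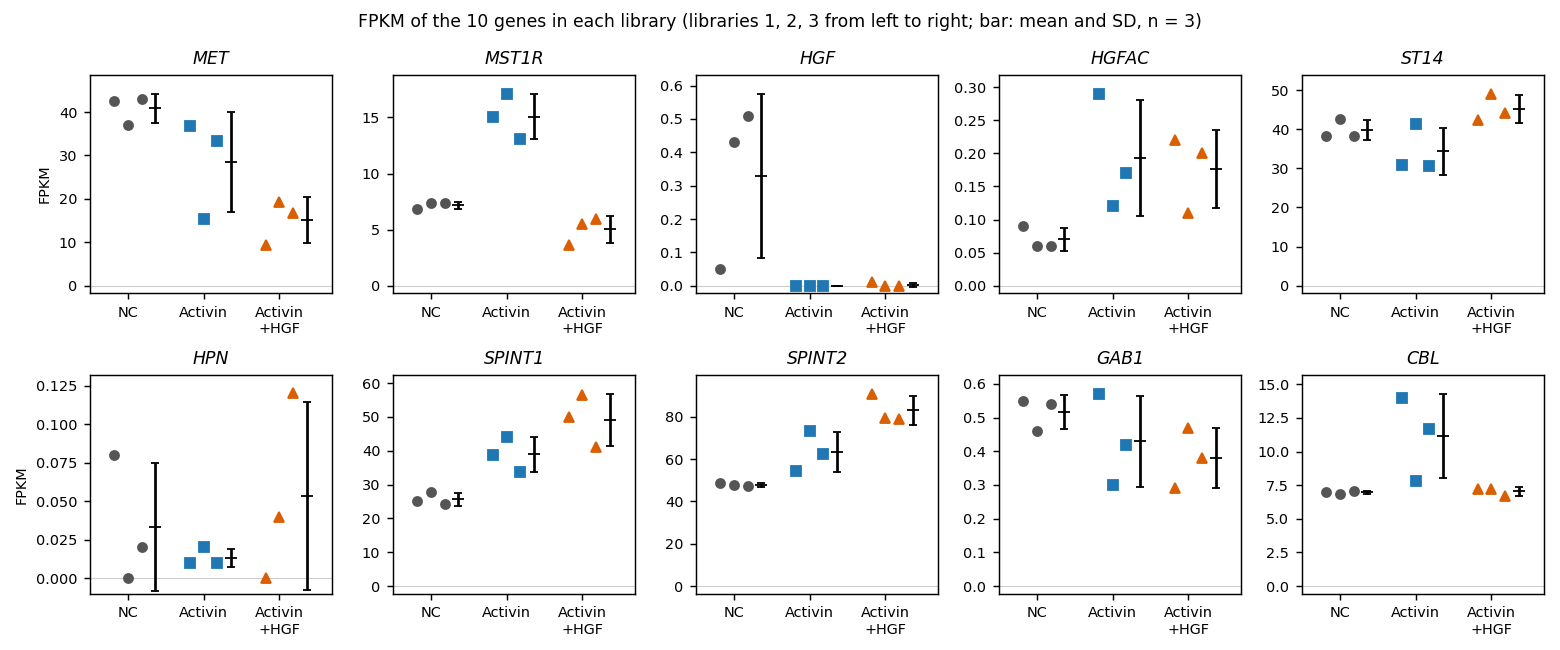
FPKM of the 10 genes in NC (circles), Activin (squares) and Activin+HGF (triangles), with libraries 1, 2 and 3 of each group from left to right and the group mean and SD (n = 3) beside them on linear axes. MET lies at 36.91 to 43.07 in NC and at 9.31 to 19.29 in Activin+HGF, while SPINT2 rises from at most 48.77 to at least 78.92.

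MET had its lowest mean after both factors. Its FPKM was 42.49, 36.91 and 43.07 in NC libraries 1, 2 and 3, 36.68, 15.31 and 33.27 in Activin and 9.31, 19.29 and 16.8 in Activin+HGF. Every Activin+HGF library lay below every NC library, and Activin library 2 lay among the Activin+HGF values. MET (ENSG00000105976, chromosome 7, 116672196 to 116798377, plus strand) was 2.23-fold lower in Activin+HGF than in NC on TMM-scaled counts, a log2 fold change of -1.16 ± 0.280 (SE) with an adjusted p of 0.0107 by edgeR's quasi-likelihood test, adjusted by Benjamini-Hochberg over all genes tested. At this threshold the call held in all 21 other fits, where the log2 fold change was between -1.49 and -0.79, but it did not reach an adjusted p under 0.01.

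The 2 steps between did not pass the test for MET. Activin against NC gave -0.63 ± 0.278 (edgeR adjusted p = 0.149) and Activin+HGF against Activin -0.53 ± 0.277 (edgeR adjusted p = 0.232). Without Activin library 2, these became -0.38 (edgeR adjusted p = 0.283) and -0.78 (edgeR adjusted p = 0.0344). In Activin library 2, MET read 0.97 lower on the log2 scale than in the other Activin libraries, and 937 genes of like GC content and length read 0.63 lower at the median. In Activin+HGF library 1, MET read 0.72 lower than in the rest of its group, and the same 937 genes 0.04 higher. In Activin+HGF against NC, these 937 genes had a median log2 fold change of -0.36, against -0.03 for all tested genes. With an offset for GC content and length, this comparison gave -0.79 for MET (edgeR adjusted p = 0.014).

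MST1R moved in opposite directions in the 2 steps. Its FPKM was 6.83, 7.39 and 7.35 in NC, 15.0, 17.11 and 13.07 in Activin and 3.63, 5.46 and 5.97 in Activin+HGF. The Activin values lay above all others, and the Activin+HGF values below all of NC in FPKM. MST1R (ENSG00000164078, chromosome 3, 49887002 to 49903873, minus strand) was 1.999-fold higher in Activin than in NC (log2 fold change 1.00 ± 0.203, edgeR adjusted p = 0.00776) and 2.35-fold lower in Activin+HGF than in Activin (-1.24 ± 0.205, edgeR adjusted p = 0.00709). At this threshold both calls held in all 21 other fits, from 0.72 to 1.16 and from -1.59 to -0.91. With a log2 fold change of at least 1 required as well, the first was lost, at 0.999. These comparisons share the Activin libraries. Activin+HGF against NC was -0.24 ± 0.202 (edgeR adjusted p = 0.411), and on TMM-scaled CPM these groups overlapped.

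The ratio of the receptors was highest in NC. Within a library, the FPKM of MET divided by that of MST1R was 5.69 ± 0.630 (SD, n = 3) in NC, 1.96 ± 0.925 in Activin and 2.97 ± 0.503 in Activin+HGF, with no overlap between any pair of groups, although the highest Activin value, 2.55, lay just under the lowest of Activin+HGF, 2.56. The 3 exact permutation tests of the log2 ratio, two-sided, each gave p = 0.1, the smallest that 3 against 3 allows. Activin library 2 had the lowest ratio, 0.895, and the other Activin libraries 2.45 and 2.55.

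The genes with the pattern most like that of MET over the 9 libraries were the protein kinase PAK2 (Pearson's r = 0.991), CARMIL1, a regulator of actin capping protein (0.990), the ubiquitin ligase UBR2 (0.989) and WASHC5, a subunit of the WASH complex (0.987), out of 12081 genes compared. The libraries share their groups and the GC shift of Activin library 2, and the values describe likeness alone. The transcripts of these genes had a GC content of 39.96% to 46.3% and a length of 4187 to 7857 bases, and that of MET 42.4% and 6635 bases.

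HGF RNA was found in NC and was near 0 in the treated groups. Its counts were 32, 326 and 451 in NC, 0 in all 3 Activin libraries, and 12, 0 and 0 in Activin+HGF. NC library 1 lay far below the other NC libraries, at 0.05 FPKM against 0.43 and 0.51. Against a floor of 3 counts per library (0.0480 CPM), HGF (ENSG00000019991, chromosome 7, 81699010 to 81770398, minus strand) was at least 76.2-fold lower in Activin than the NC mean, and at least 10.9-fold lower than NC library 1. The call for Activin against NC had an edgeR adjusted p of 0.00966 and was kept in all 18 other fits that gave HGF a value. Activin+HGF against NC had an edgeR adjusted p of 0.0185, which became 0.0517 without NC library 2, 0.0593 without NC library 3, 0.0671 with a replicate block and 0.101 by DESeq2. The step from Activin to Activin+HGF rests on 12 counts in 1 library and did not pass (edgeR adjusted p = 0.206).

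Markers of fibroblasts, cells known for secreting HGF, did not move in 1 direction over the groups. COL3A1 held 59, 144 and 212 counts in NC, 3, 0 and 0 in Activin and 14, 21 and 27 in Activin+HGF. PDGFRA held 12, 98 and 69 counts in NC, at most 16 in Activin and 0 in Activin+HGF, and THY1 held 0, 40 and 25 in NC and 0 in every treated library. COL1A2 held 0, 23 and 6 counts in NC and 10 in 1 treated library. The other markers in the table went the other way, COL1A1 with 1472 to 1803 counts in NC and 2794 to 3968 in Activin, and PDGFRB with 31, 0 and 28 in NC, 152, 178 and 126 in Activin and 51, 87 and 39 in Activin+HGF. The sum of all 6 fibroblast markers in the table was 25.7 to 29.1 CPM in NC, 47.8 to 54.8 in Activin and 34.0 to 41.9 in Activin+HGF. Without COL1A1, the most abundant of them, the sum was 102 to 340 counts in NC, 147 to 194 in Activin and 65 to 108 in Activin+HGF. Of the markers at or below 3 counts in every library of a group, there were 0 in NC, 2 in Activin and 3 in Activin+HGF. The part of such cells in the HGF result was not tested, and in bulk RNA fewer cells of a type and less RNA per cell cannot be told apart. Besides HGF, 2 genes had at least 100 counts in NC libraries 2 and 3 and at most 12 in every treated library, a search made after the HGF counts were seen. They were DMD, the dystrophin gene, with 13, 168 and 133 counts in NC, and the long noncoding RNA DLX6-AS1 with 21, 175 and 177.

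HGFAC and HPN were barely expressed. HGFAC (ENSG00000109758, chromosome 4) held 19, 14 and 16 counts in NC, 59, 24 and 37 in Activin and 52, 27 and 48 in Activin+HGF. Both treated groups lay above NC without overlap, but neither difference passed the test. The log2 fold changes were 1.22 ± 0.587 (edgeR adjusted p = 0.186) and 1.54 ± 0.591 (edgeR adjusted p = 0.0709). The median of 1119 genes of like GC content and length was 0.31 and 0.42 in these comparisons. HPN (ENSG00000105707, chromosome 19) held 19, 0 and 8 counts in NC, 3, 5 and 4 in Activin and 0, 12 and 34 in Activin+HGF. Its libraries overlapped in every comparison, with edgeR adjusted p of 0.672, 0.444 and 0.737.

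ST14, the one HGF-activating protease of the set with a high level, did not pass the test against NC. Its FPKM was 38.26, 42.75 and 38.21 in NC, 30.99, 41.32 and 30.7 in Activin and 42.32, 49.09 and 44.1 in Activin+HGF. Activin library 2 lay within the NC range and the other Activin libraries below it. On TMM-scaled CPM, Activin+HGF lay above NC without overlap (at least 239 against at most 201). ST14 (ENSG00000149418, chromosome 11, 130159782 to 130210362, plus strand) gave -0.27 ± 0.196 for Activin against NC (edgeR adjusted p = 0.391) and 0.48 ± 0.196 for Activin+HGF against NC (edgeR adjusted p = 0.0862). Without Activin library 2 the first became -0.52 (edgeR adjusted p = 0.0186) and the second kept its size at 0.48 (edgeR adjusted p = 0.00853).

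The Kunitz inhibitors rose from NC to Activin+HGF. The FPKM of SPINT1 was 25.1, 27.88 and 24.18 in NC, 38.85, 44.02 and 33.86 in Activin and 49.85, 56.4 and 41.15 in Activin+HGF. That of SPINT2 was 48.77, 47.55 and 47.24 in NC, 54.3, 73.14 and 62.46 in Activin and 90.81, 79.33 and 78.92 in Activin+HGF. In FPKM both treated groups lay above NC for both genes, while on TMM-scaled CPM SPINT2 in Activin overlapped NC (at least 274 against at most 276). SPINT1 (ENSG00000166145, chromosome 15, 40844018 to 40858207, plus strand) was 2.35-fold higher in Activin+HGF than in NC (log2 fold change 1.24 ± 0.203, edgeR adjusted p = 0.0015), and SPINT2 (ENSG00000167642, chromosome 19, 38244035 to 38292615, plus strand) was 2.15-fold higher (1.11 ± 0.201, edgeR adjusted p = 0.00257). The antisense gene SPINT1-AS1 overlaps SPINT1 by 370 bases and held 166 to 412 counts, against 5922 to 17626 for SPINT1. Both calls held in all 21 other fits, from 0.90 to 1.37 for SPINT1 and from 0.78 to 1.18 for SPINT2. In Activin+HGF against NC, the median of genes of like GC content and length was 0.36 for SPINT1 (987 genes) and 0.05 for SPINT2 (767 genes). Activin against NC did not pass for either, at 0.53 ± 0.201 (edgeR adjusted p = 0.0963) and 0.34 ± 0.199 (edgeR adjusted p = 0.282).

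In Activin+HGF against Activin, ST14, SPINT1 and SPINT2 were higher together, at 0.75 ± 0.197, 0.71 ± 0.201 and 0.77 ± 0.200 on the log2 scale, with edgeR adjusted p of 0.0336, 0.0445 and 0.0336. These calls were lost in 12, 12 and 13 of 21 other fits, among them scaling by library totals (0.43, 0.37 and 0.42) and leaving out any one of the libraries except Activin library 2 and, for SPINT1, Activin+HGF library 3. Library totals moved the median of all genes in this comparison to -0.38, from -0.04 with TMM. EPCAM, an epithelial marker, rose in the same comparison by 1.02 ± 0.164 (edgeR adjusted p = 0.0067). KRT8 gave 0.93 ± 0.279 (edgeR adjusted p = 0.0529). CDH1 gave -0.19, KRT18 0.01, CLDN7 0.34, CDX2 0.35, KRT19 0.74 and VIL1 1.18, and none of these passed. Thus 1 of 8 tested epithelial markers passed (12.5%, against 12.9% of all genes). Their part in the result was not tested.

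Against ST14, the inhibitors stood higher in both treated groups. The summed FPKM of SPINT1 and SPINT2 divided by that of ST14 was 1.85 ± 0.0841 (SD, n = 3) in NC, 2.99 ± 0.151 in Activin and 2.94 ± 0.335 in Activin+HGF. Each treated group lay above NC without overlap, with an exact two-sided permutation p of 0.1, the smallest possible, and the treated groups overlapped (exact permutation p = 0.8). Both comparisons share the NC libraries. Activin library 2 had the lowest Activin value, 2.84. These are ratios of RNA and not of protein.

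GAB1 and CBL, which act on the receptor from inside the cell, passed the test in no comparison. The FPKM of GAB1 (ENSG00000109458, chromosome 4) was 0.46 to 0.55 in NC, 0.3 to 0.57 in Activin and 0.29 to 0.47 in Activin+HGF, with overlap throughout and edgeR adjusted p of 0.386, 0.661 and 0.662. The FPKM of CBL (ENSG00000110395, chromosome 11) was 6.83 to 7.1 in NC, 14.0, 7.79 and 11.64 in Activin and 6.67 to 7.25 in Activin+HGF. The Activin values lay above NC without overlap, and Activin library 2 lay closest. Activin against NC was 0.58 ± 0.183 (edgeR adjusted p = 0.0527), just outside the threshold, and became 0.72 (edgeR adjusted p = 0.00847) without Activin library 2. On TMM-scaled CPM, Activin+HGF also lay above NC without overlap (at least 103 against at most 92.8). That comparison gave 0.32 ± 0.183 (edgeR adjusted p = 0.205). CBL overlaps MCAM by 5398 bases on the opposite strand, and MCAM held 2570 to 4952 counts per library against 5435 to 12018 for CBL. Whether counting used the strand is not given in the sources used here, so reads of the shared part could be counted for either gene.

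**Figure D2:**
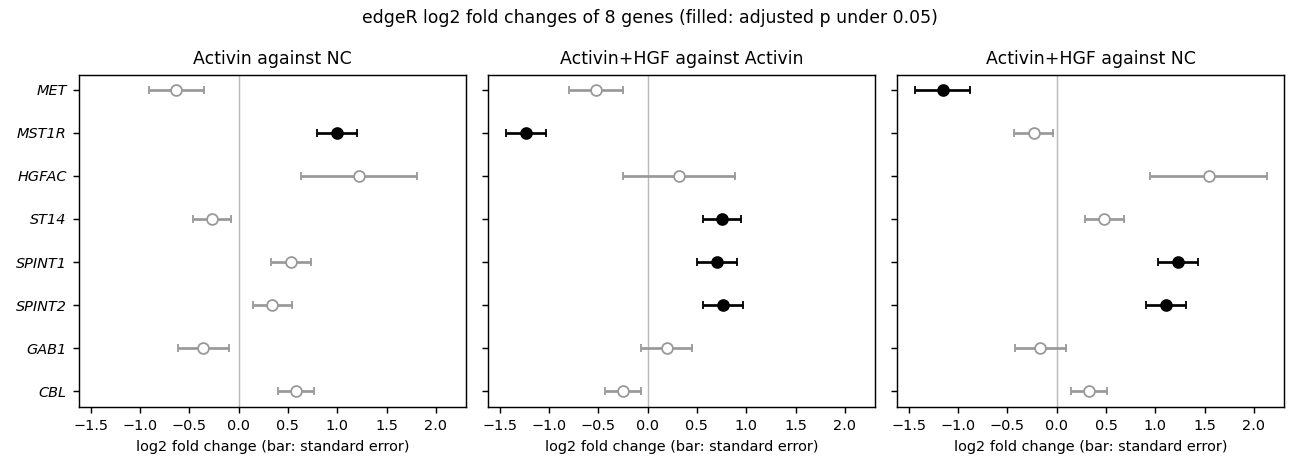
edgeR log2 fold changes (x) with their standard errors for 8 genes in the 3 comparisons, filled where the adjusted p was under 0.05. HGF and HPN are left out because their counts reach 0. MST1R is filled on the right at 1.00 in Activin against NC and on the left at -1.24 in Activin+HGF against Activin, and MET is filled only in Activin+HGF against NC, at -1.16.

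Counted over the set, 2 of the 10 genes passed in Activin against NC, where 18.0% of all tested genes did. They were MST1R, higher as 9.58% of all genes were, and HGF, lower as were 8.41%. In Activin+HGF against Activin 4 of 10 passed, 3 higher and MST1R lower, against 12.9% of all genes (7.41% higher and 5.45% lower). In Activin+HGF against NC 4 of 10 passed, SPINT1 and SPINT2 higher and MET and HGF lower, against 31.4% (16.4% higher and 15.0% lower). With a log2 fold change of at least 1 as well, 1, 1 and 4 of the 10 passed in these comparisons, against 11.4%, 8.09% and 21.5% of all genes. The median log2 fold change of the set was 0.03, 0.51 and 0.40 in these comparisons, and that of all tested genes 0.02, -0.04 and -0.03. Groups did not overlap on TMM-scaled CPM for 6, 4 and 7 of the 10 genes, while 42.2%, 32.7% and 53.8% of all genes did not overlap. The share in Activin against NC lies near that of all genes.

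Around these genes, 5 lists with 106 further genes were written from their known roles. Of these, 93 were tested. In Activin against NC 18 were higher and 4 lower (23.7% of those tested, against 18.0% of all genes), in Activin+HGF against Activin 9 and 6 (16.1% against 12.9%), and in Activin+HGF against NC 29 and 9 (40.9% against 31.4%).

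The proteases that act on HGF or on its activators, with the serpins that inhibit such proteases, held 12 tested genes, and each of them that passed was higher. These were 5 in Activin against NC, 3 in Activin+HGF against Activin and 8 in Activin+HGF against NC, or 41.7%, 25% and 66.7%. Of all genes, 18.0%, 12.9% and 31.4% passed in either direction, and 9.58%, 7.41% and 16.4% were higher. The median log2 fold changes of the list were 0.72, 0.27 and 1.28. KLK5, a kallikrein-related protease, rose in both steps, by 2.21 ± 0.277 and 1.99 ± 0.267, from at most 0.3 FPKM in NC to at least 3.92 in Activin+HGF. PRSS8, the membrane-anchored protease prostasin that works with matriptase, rose by 1.22 ± 0.261 in the second step, and its FPKM was 45.58 in Activin+HGF library 1 against 28.7 and 28.9 in the others. PLAU, the urokinase protease that can also cut HGF, named after its values were seen, had an FPKM of 13.18 to 14.0 in NC, 30.22 to 43.52 in Activin and 20.78 to 25.26 in Activin+HGF and rose against NC by 1.298 ± 0.212 and 1.09 ± 0.211 (edgeR adjusted p = 0.00246 and 0.0035). SERPINA5, the protein C inhibitor, also rose in the second step, by 1.40 ± 0.304. SERPINA1, an elastase inhibitor that is also on the hepatocyte marker list, rose in Activin by 1.67 ± 0.247. That marker list went both ways in Activin against NC, with 2 of 6 tested genes higher and 1 lower (50%, against 18.0% of all genes). The lower one, CPS1, gave -1.13 ± 0.256 (edgeR adjusted p = 0.0130). The list summed to 62.7 to 67.8 CPM in NC, 37.5 to 53.8 in Activin and 51.1 to 66.9 in Activin+HGF.

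The other type II transmembrane serine proteases, the family of matriptase and hepsin, were low, and 6 of 10 in the table could be tested. In the 3 comparisons 1, 1 and 3 of the 6 passed (16.7%, 16.7% and 50%, against 18.0%, 12.9% and 31.4% of all genes). Against NC the calls were 1 higher in Activin, and 2 higher and 1 lower in Activin+HGF. TMPRSS4, named after its values were seen, rose against NC by 1.52 ± 0.295 and 1.68 ± 0.296. TMPRSS7 was the single gene that passed in Activin+HGF against Activin, where it was lower, and was also named after its values were seen. It held 22, 2 and 11 counts in Activin and 0 in all Activin+HGF libraries, and its mean FPKM was below 1 in every group.

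Among 18 surface partners of MET with the MST1R ligand gene MST1, 4, 5 and 7 passed in the 3 comparisons, in both directions (22.2%, 27.8% and 38.9%, against 18.0%, 12.9% and 31.4% of all genes). NRP1, a co-receptor of several growth factors, went from 0.16 to 0.22 FPKM in NC to 1.39 to 2.82 in Activin (log2 fold change 3.16 ± 0.286, edgeR adjusted p = 0.00011). AXL, a receptor kinase, rose and then fell as MST1R did (1.70 ± 0.196 and then -1.12 ± 0.193). Its FPKM was 7.4 to 9.1 in NC, 26.27 to 31.02 in Activin and 7.53 to 11.76 in Activin+HGF. AXL still passed as higher in Activin+HGF against NC (0.59 ± 0.192, edgeR adjusted p = 0.0400), where MST1R did not pass. FAS, the death receptor that MET can bind, fell by 1.13 and, against NC, by 2.05 after both factors, and its FPKM of 0.4 in Activin library 2 lay within the 0.38 to 0.45 of Activin+HGF. ERBB3, a receptor partner in the EGFR family, fell by 0.56 in the second step, and the proteoglycan SDC1 rose by 0.85 ± 0.185.

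Of 35 signalling genes, 6, 3 and 13 passed (17.1%, 8.57% and 37.1%, against 18.0%, 12.9% and 31.4% of all genes). The share was thus close to that of all genes in the first comparison and below it in the second. Higher and lower calls numbered 4 and 2, 2 and 1, and 9 and 4. The docking protein GAB2, a relative of GAB1, rose in Activin against NC by 1.48 ± 0.332 from 0.54 to 0.66 FPKM in NC, and SHC1 and PXN, an adaptor and a focal adhesion protein, rose by 0.80 ± 0.191 and 0.89 ± 0.177. MAP2K1, the kinase above ERK, rose in the second step by 0.73 ± 0.177 and HRAS by 0.67 ± 0.162, while DOCK1, a Rac activator, fell by 0.71.

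Of 22 tested genes of receptor removal and silencing, 6, 3 and 7 passed. These were 27.3%, 13.6% and 31.8%, against 18.0%, 12.9% and 31.4% of all genes, and the last 2 shares lay near those. The calls were 5 higher and 1 lower in Activin against NC, 2 and 1 in the second step, and 6 and 1 in Activin+HGF against NC. TIMP3, an inhibitor of the metalloproteases that shed surface receptors, rose in both steps, by 1.68 ± 0.223 and 0.95 ± 0.218. Of such proteases, ADAM17 rose in Activin by 1.09 ± 0.210, and ADAM10, named after its values were seen, fell there by 0.83 ± 0.224. SH3GL1, an endophilin of receptor uptake, rose in Activin by 0.91 ± 0.233. USP8, which takes ubiquitin off receptors in endosomes, fell by 1.15 in the second step, from 1.1 to 3.01 FPKM in Activin to 0.48 to 0.99, and SPSB1, an adaptor reported to bind MET, rose by 0.97 ± 0.260. All log2 fold changes named from these lists had an edgeR adjusted p below 0.05. Many calls of the second step depend on the libraries used, since 2 to 24 genes of the lists passed there when 1 library was left out, against 15 with all. The lowest count, 2, came without Activin library 3.

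**Figure D3:**
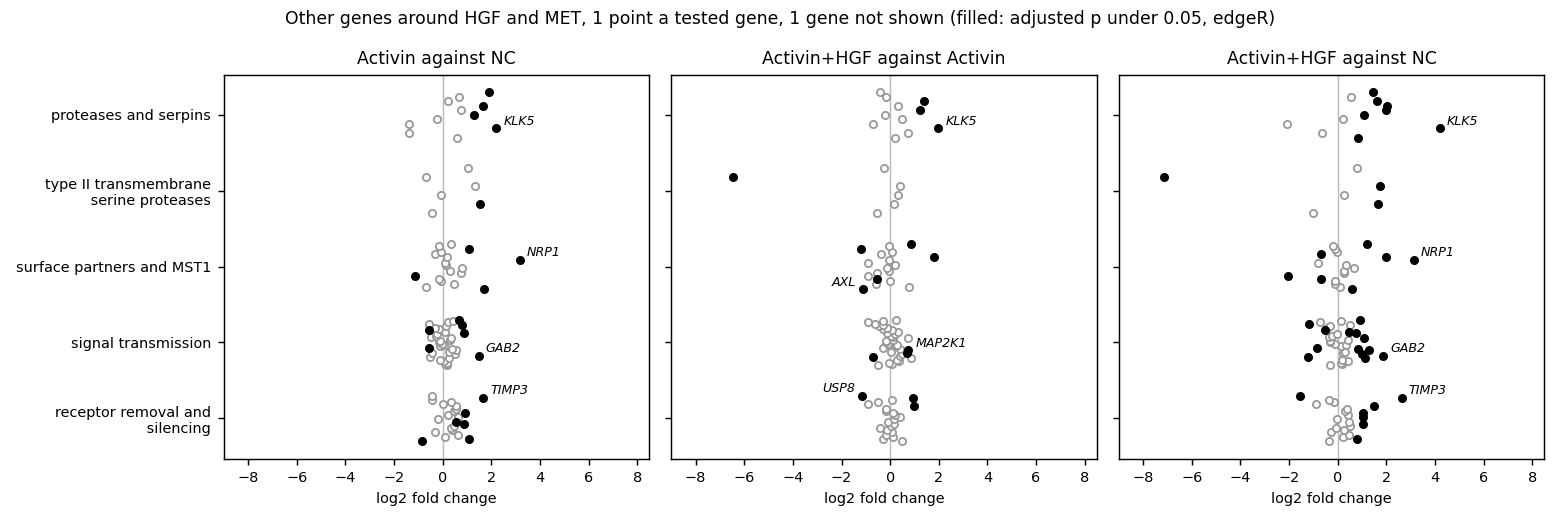
edgeR log2 fold changes (x) of the tested genes of the 5 lists (y), 1 point a gene with 1 gene not shown, filled where the adjusted p was under 0.05, with the gene named that moved most among those with a mean FPKM of at least 1. NRP1 lies at 3.16 and 3.12 against NC, and the filled point at the far left in the second list is TMPRSS7, with 0 counts in Activin+HGF.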

How the data were processed

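RNA was sequenced from 9 libraries of HCT116 cells after depletion of ribosomal RNA, with paired ends. The authors deposited raw read counts per gene and FPKM, normalized by the authors to library size and gene length. The submitters' processing notes name cutadapt 1.9, HISAT2 2.0.4 and StringTie 1.3.4d without role or order. The counting program and use of strand are not given in the sources used here. Of the counts from 1 to 40, 35.05% were multiples of 4, against an even share of 25%.

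Members and lists were chosen with earlier results of these data known. Groups followed the labels. Counts were fitted with edgeR 4.0.16 in R 4.3.3 (filterByExpr, TMM, glmQLFit and glmQLFTest, all 9 libraries, 1 mean per group, no block), with Benjamini-Hochberg adjustment over 20988 genes and a call at an adjusted p under 0.05. Standard errors were computed from the log2 fold change and the F statistic. On simulated data for Activin against NC, with 20549 genes, 100% of 200 genes changed by a log2 fold of 2 were called and 3.38% of calls were unchanged genes. The simulation held no GC shift and no library that stood apart, so it gives no error rate for the real libraries. Besides all members, the named genes were, from each list and comparison, up to 3 called genes with the largest change, if the group with more RNA averaged an FPKM of 1 or above, and the 5 nearest to MET. Some genes that meet this rule are left out here. Likeness used log2 CPM with a prior count of 2.

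Alternatives were other scalings, filters, thresholds and groups in the fit, a replicate block, DESeq2 1.42.0, limma 3.58.1 on log2(FPKM + 0.1) or log2(FPKM + 1), counts divided by 4, and each library left out. An offset for GC content and length, and leaving out Activin library 2 together with Activin+HGF library 1, were added after seeing the data. Of the genes, 32930 were found in GENCODE 29 (GRCh38), 19825 with the same start and end as the table, whose own coordinates are given. Intervals and floors of counts cover counting error only.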

Additional observations from a re-analysis of the deposited data

How the results depend on the processing

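HGF, HGFAC and HPN rest on 0 to 451 counts per library. The cause of the changes below was not tested. Leaving out 1 library gave 2021 to 4729 called genes in Activin against NC, 686 to 4533 in Activin+HGF against Activin and 4260 to 7798 in Activin+HGF against NC, from 3776, 2698 and 6587. Members called then numbered 2 to 4, 1 to 5 and 3 to 5, and list genes 12 to 29, 2 to 24 and 28 to 48. The lowest total counts came without NC library 3, Activin library 1 and NC library 3, and the highest without Activin+HGF library 1 and, for the last 2 comparisons, Activin library 2.

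In Activin against NC, leaving out Activin library 2 together with Activin+HGF library 1, a choice made after seeing the data, gave 6480 genes, 5 members and 42 list genes. A log2 fold change of at least 1 left 2394 genes, 1 member and 13 list genes, and an adjusted p under 0.01 left 1688 genes and 11 list genes. Library totals and the GC and length offset each called 4 members. In Activin+HGF against Activin, DESeq2 called 4413 genes, the fit on only these groups 714 genes, 1 member and 2 list genes, and the GC and length offset 4233 genes and 24 list genes. Leaving out both libraries gave 5862 genes and 33 list genes, a log2 fold change of at least 1 left 1697 genes, 1 member and 8 list genes, and an adjusted p under 0.01 left 488 genes, 1 member and 2 list genes. Library totals and limma with either pseudocount called 1 member, and limma with a pseudocount of 1 called 23 list genes. In Activin+HGF against NC, an adjusted p under 0.01 left 3492 genes and 2 members.

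The replicate block gave 3362, 2044 and 6088 called genes and 2, 3 and 3 members. It ended the calls of SPINT2 in Activin+HGF against Activin (log2 fold change 0.77, edgeR adjusted p = 0.0572) and of HGF in Activin+HGF against NC. Same-numbered libraries did not deviate together (correlations of -0.06 to 0.09 over 9 pairs), so the numbers were not taken to pair them.

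Of the members, values that passed no test changed sign for HPN without NC library 1 (0.23, Activin against NC, from -1.74 to 0.23 as each library was left out) and without Activin+HGF library 3 (-0.61, Activin+HGF against NC, from -0.61 to 2.14), and for HGFAC in Activin+HGF against Activin with library totals (-0.0796) and without both doubted libraries (-0.18). In the same comparison GAB1 changed sign with library totals (-0.16) and limma at a pseudocount of 0.1 (-0.13) or 1 (-0.0491), and CBL with the GC and length offset (0.12). With that offset GAB1 in Activin+HGF against NC also changed sign (0.19), and CBL there passed (0.71, edgeR adjusted p = 0.00174), as did ST14 in Activin against NC (-0.66, edgeR adjusted p = 0.00757) and MST1R in Activin+HGF against NC (-0.43, edgeR adjusted p = 0.0286).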
